A study of Mus musculus with 4 samples.

Results

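The cytosolic ribosomal proteins were examined in lenses with a conditional deletion of Celf1, which encodes an RNA-binding protein. Genes were taken by symbol from the array annotation, as Rpl or Rps followed by a number with the optional letters a, l, x or p, together with Rplp0, Rplp1, Rplp2 and Rpsa, without the Rps6k kinases and without names marked as pseudogenes. This gave 67 genes with 100 probes on the array, of which 60 genes with 81 probes had a detection p-value under 0.05 on at least 2 of the 4 arrays. These 60 genes stood among 12013 genes tested. Rps18, Rpl39l, Rpl17, Rps23, Rpl3l, Rpl14 and Rps20 had no probe that was retained, and some canonical family members, such as Rpl5, Rpl11, Rpl8 and Rps28, were not matched by symbol and were not analysed here.

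Expression was measured in whole mouse lens at postnatal day 6 (P6), with 2 Celf1 cKO samples (A and B) and 2 Control samples (A and B), each a single lens measured by 1 array of an Illumina mouse whole-genome BeadChip. Celf1 cKO animals carried 1 lacZ knock-in allele of Celf1, which is a germline null, and 1 floxed Celf1 allele deleted by Pax6GFPCre, a Cre that is driven by a Pax6 promoter and is active in lens and pancreas lineages. Control animals had the same lacZ allele and a wild-type one, so that every lens was at least heterozygous for Celf1, and whether these animals carried Pax6GFPCre was not stated. The mice were on a mixed C57BL/6 and FVB background and their sex was not given. The targeted gene, named Cugbp1 on the array, had log2 values of 7.45 and 6.95 in Celf1 cKO and 8.71 and 8.55 in Control, which is -1.43 ± 0.19 as a log2 fold change (SE, limma, adjusted p = 0.00884). Xist was at 7.42 and 7.27 in Celf1 cKO against 4.26 and 4.39 in Control, where it was not above background, and Y-linked Ddx3y at 6.81 and 4.82 against 8.99 and 8.82. Uty, the other Y-linked gene tested, was at 4.67 and 4.89 against 4.47 and 4.52, was not called and was above background on no Control array. Xist and Ddx3y thus differed together with genotype, and the effect of sex and of genotype cannot be told apart.

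Ribosomal proteins assemble with ribosomal RNA into the large and the small subunit of the cytosolic ribosome. The mRNAs of most of them begin with a run of pyrimidines at the 5′ end, the terminal oligopyrimidine (TOP) tract, through which mTORC1 and Larp1 control their translation as a group. In the lens, fiber cells fill with crystallin protein and then lose their nuclei and organelles, ribosomes included. Variants in many of these genes cause Diamond-Blackfan anemia in people, and Rps27l is known as a p53 target.

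Start-site sequences from RefSeq (build GRCm38.p6) were found for 47 of the 60 genes, and Rpl29 was among the 13 with none. The windows below run from 50 bases before to 20 bases after an annotated start, and are shown for the genes of the highest and the lowest fold changes and for stalk members, with the longest unbroken run of C or T in capitals.
Rps27l, chr9:66946036-66946105, plus strand: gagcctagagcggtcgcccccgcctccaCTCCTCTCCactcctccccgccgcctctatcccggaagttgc
Rpl4, chr9:64173337-64173406, plus strand: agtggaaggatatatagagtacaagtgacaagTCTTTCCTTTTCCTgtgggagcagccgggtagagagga
Rps4x, chrX:102189372-102189441, minus strand: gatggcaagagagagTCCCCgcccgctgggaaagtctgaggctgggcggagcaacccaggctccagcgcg
Rps10, chr17:27635225-27635294, minus strand: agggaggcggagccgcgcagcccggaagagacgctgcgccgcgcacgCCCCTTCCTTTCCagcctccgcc
Rps25, chr9:44407664-44407733, plus strand: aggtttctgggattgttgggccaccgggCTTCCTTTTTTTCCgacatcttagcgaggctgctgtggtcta
Rpl26, chr11:68901516-68901585, plus strand: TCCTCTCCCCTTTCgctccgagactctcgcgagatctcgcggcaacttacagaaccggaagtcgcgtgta
Rplp0, chr5:115559417-115559486, plus strand: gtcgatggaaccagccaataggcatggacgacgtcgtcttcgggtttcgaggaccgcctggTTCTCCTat
Rplp2, chr7:141447601-141447670, plus strand: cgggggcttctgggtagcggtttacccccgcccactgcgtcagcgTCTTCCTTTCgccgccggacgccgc
The run was 14 bases long in Rpl4, Rps25 and Rpl26, 13 in Rps10, 10 in Rplp2, 9 in Rps27l, 7 in Rplp0 and 5 in Rps4x. In Rps27l the capitals mark the first of 2 runs of 9. The annotated start lies inside the run in Rps10 and Rplp2. A second Rps27l entry, further downstream, is not shown.

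A run of 8 or more C or T, on the coding strand of this 70-base window, was present in 31 of 56 start entries of the retained genes (55.4%) and in 27.9% of 32851 entries of all genes. The letters CCGGAAG or their reverse complement CTTCCGG, the core of an ETS factor motif, stood in 41.1% of the member entries over the full 300 bases and in 8.86% of all entries. The fold changes were close with and without these letters. The median log2 fold change was -0.10 for the 29 genes with such a pyrimidine run and -0.07 for the 18 without, and -0.06 for the 22 genes with the ETS letters and -0.10 for the 25 without. A match is a description of the letters only.

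The probes that gave the called genes are 50-base oligonucleotides, of which 30 bases are shown so that the measured stretch can be seen. Capitals mark bases shared with a probe of another gene.
Rpl29, probe at transcript base 31: gggttaccgtgagtgttggccttacggcat
Rpl29, probe at transcript base 573: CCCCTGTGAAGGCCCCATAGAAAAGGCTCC
Rpl4, probe at transcript base 1384: ggtgacaaacccttgtgtgactcttaaatt
Rps27l, probe at transcript base 196: ttcagccatgcacagactgtggttctttgt
The capitals in the second Rpl29 probe are part of a stretch of 31 bases that it shares with the probe of LOC382061. A probe each of Rpl12, Rpl27a, Rpl31, Rps2 and Rps9 also shared between 27 and 43 bases with a probe of an unnamed locus, so the signals of those pairs may not be separable.

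The ribosomal proteins were among the brightest features of every array. The median retained member probe stood at 5242 and 5589 intensity units on the Celf1 cKO arrays and at 4016 and 3567 on the Control arrays without normalization, above the 99th percentile of all probes, which was 3209, 3444, 2158 and 1699 in the same order. The brightest member was Rpl41, a short basic protein of the large subunit, with 34909 and 32739 against 30060 and 21463. As a whole the Celf1 cKO arrays were the brighter pair, with 16261 and 16925 probes detected against 14542 and 14180, and 72 of the 81 member probes were brighter on both Celf1 cKO arrays before normalization, against 75.8% of all 16262 retained probes. Brightness and genotype cannot be told apart, so changes are given after quantile normalization of log2 values and relative to the other genes.

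Of the 60 ribosomal protein genes, 3 were called between Celf1 cKO and Control, 2 elevated and 1 reduced, against 11.9% of all genes tested. A call required an adjusted p under 0.05 in limma, an absolute log2 fold change over 0.58 (a fold of 1.5) and a mean log2 signal over 4.6. Over all genes, 6.19% were called elevated and 5.72% reduced, so that 52.0% of the calls were elevated. That split was 97.4% when arrays were only brought to the same median and 25.5% when they were brought to the same median over the probes detected on all 4. An unadjusted p under 0.05 was reached by 15 of the 60 genes, against 31.9% of all genes. With 2 lenses in each group these p-values rest on the spread between single lenses.

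**Figure D1:**
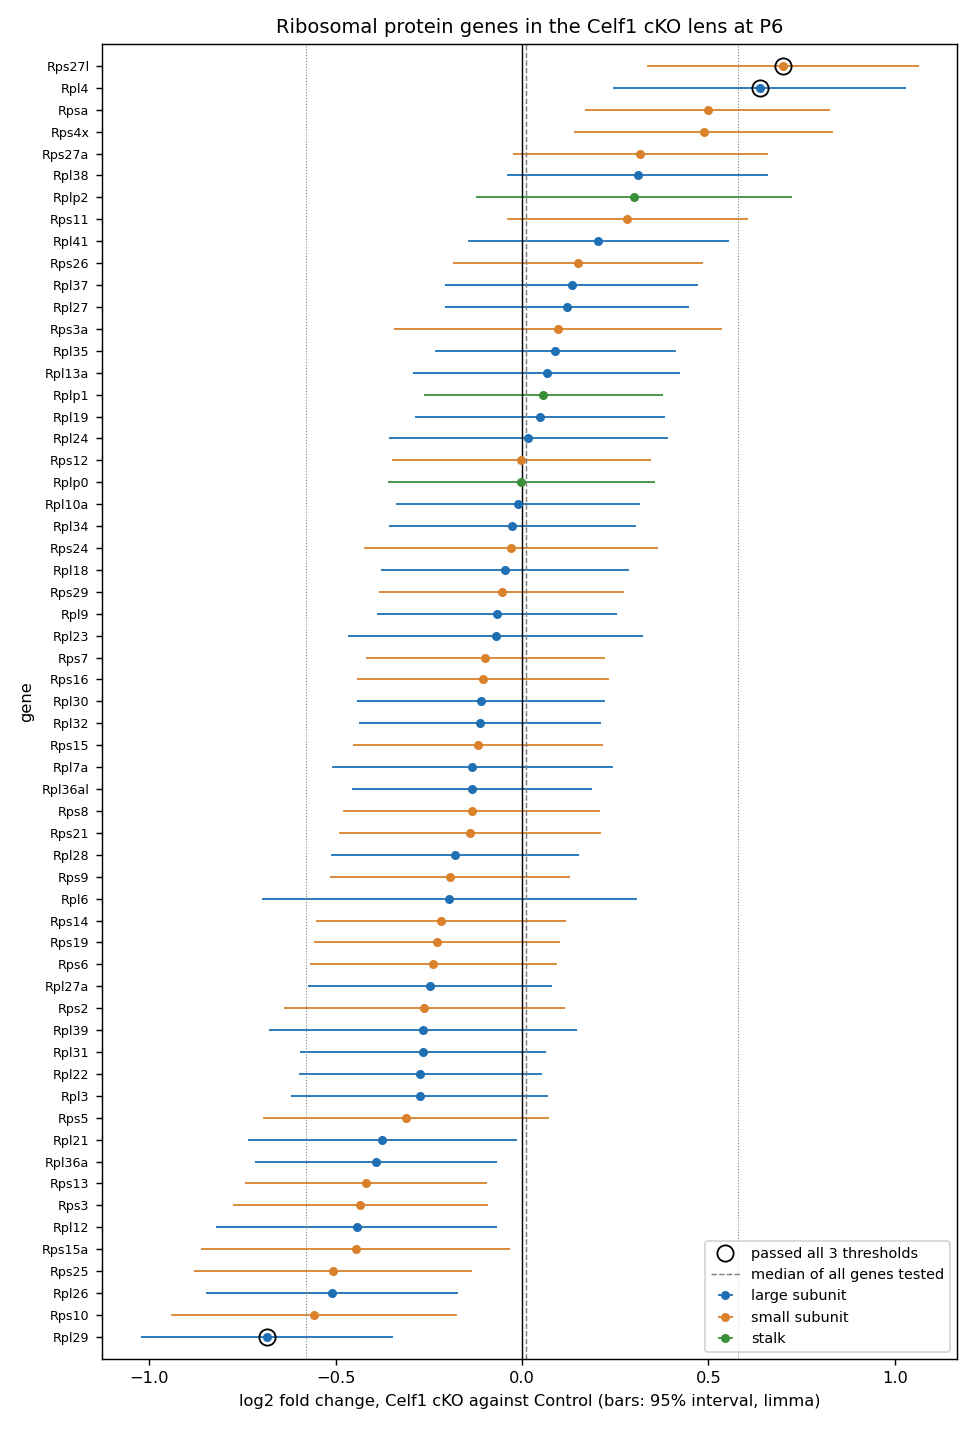
Fitted log2 fold change (horizontal axis) of 59 of the 60 ribosomal protein genes in order of size (vertical axis), with 95% intervals from limma, coloured by subunit, and with rings around called genes. Rps27l and Rpl4 lie to the right of the upper dotted line at 0.58 and Rpl29 to the left of the lower one at -0.58; the dashed line is the median of all 12013 genes.

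Rps27l, a copy of the small subunit protein Rps27, was the gene with the highest fold change. Its log2 values were 12.05 and 12.32 in Celf1 cKO and 11.51 and 11.47 in Control. Both Celf1 cKO lenses were above both Control lenses, and the log2 fold change of 0.70 ± 0.15 (SE, n = 2 and 2) had an adjusted p of 0.0324 in limma, at a fold of 1.62. Its single probe read 5242 and 6794 intensity units against 2526 and 1923 without normalization. Rps27 itself was not matched on the array, so the copy could not be set beside its parent.

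Rpl4, a large subunit protein that lines the peptide exit tunnel, was the other elevated gene. Its log2 values were 8.86 and 9.22 in Celf1 cKO and 8.42 and 8.39 in Control, without overlap. Its change of 0.64 ± 0.17 (SE) on the log2 scale had an adjusted p of 0.04997 in limma, which is just inside the threshold. The value rests on the probe at base 1384, since the second Rpl4 probe was not detected on any array. Rpl4 was not called in the fit on single probes (adjusted p = 0.057), nor when any 1 array was left out (adjusted p from 0.0567 to 0.312).

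Rpl29, a large subunit protein that also binds heparin, was the reduced gene. Its log2 values were 9.51 and 9.49 in Celf1 cKO and 10.10 and 10.27 in Control, so that the log2 fold change was -0.68 ± 0.14 (SE), or 1.61-fold lower, with an adjusted p of 0.0284 in limma. The probe at base 31 gave -0.70 (adjusted p = 0.0388) and the probe at base 573 gave -0.67 (adjusted p = 0.0331) in the fit on single probes. Without normalization the probe at base 573 read 1557 and 1574 intensity units in Celf1 cKO and 1556 and 1249 in Control, while most members were brighter in Celf1 cKO, so Rpl29 is reduced relative to the other genes. With arrays brought to the same median its log2 fold change was 0.12, against a median of 0.53 over all genes. LOC382061, which shares bases with that probe, was also called reduced, with log2 values of 8.26 and 8.15 against 8.81 and 9.25 (log2 fold change -0.82 ± 0.18 SE, adjusted p = 0.0322). The probe at base 31 shares no such stretch.

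Leaving out 1 array removed calls. Rps27l kept its call only without Celf1 cKO replicate A, and Rpl29 kept its call only without Control replicate A, when Rps10 was called reduced as well. Without Celf1 cKO replicate B or without Control replicate B no ribosomal protein gene was called. Over all genes, 751 were called without Celf1 cKO replicate A, 254 without Celf1 cKO replicate B, 1574 without Control replicate A and 329 without Control replicate B, in place of 1431.

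**Figure D2:**
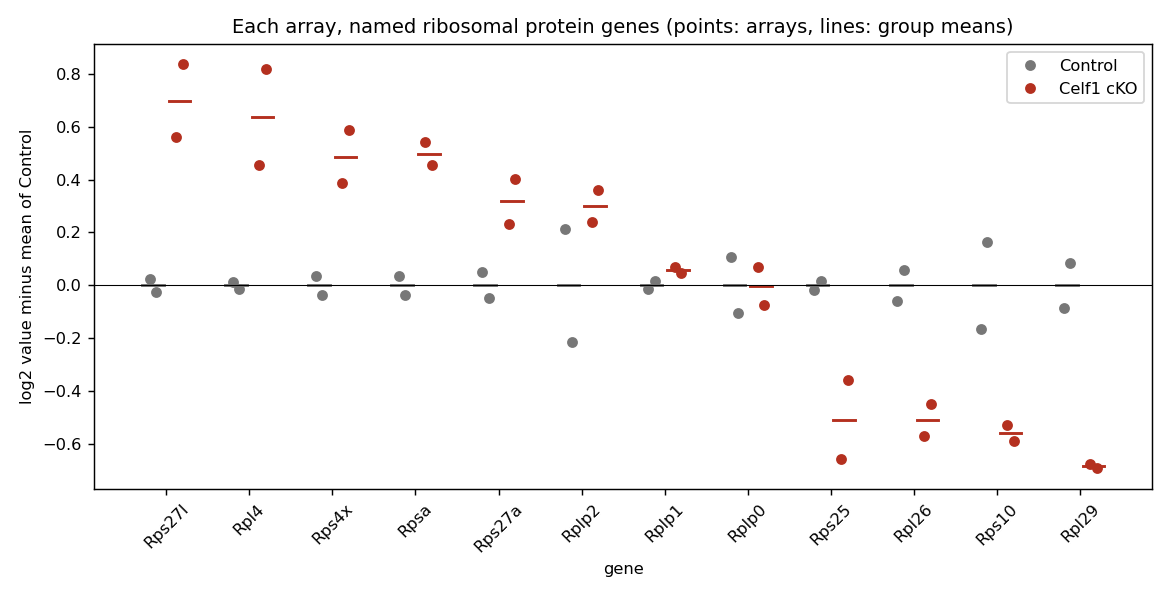
Log2 value of each array minus the mean of the Control arrays (vertical axis) for 12 ribosomal protein genes (horizontal axis); points are arrays and short lines are group means of 2. In Rps27l and Rpl4 both Celf1 cKO points lie above both Control points, in Rpl29 both lie below, and in Rplp0 the groups overlap; Rpsa was not above background on the Control arrays.

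Genes next on each side did not pass the threshold. Rps10, a small subunit protein near the mRNA entry, had log2 values of 11.80 and 11.75 in Celf1 cKO and 12.17 and 12.50 in Control (log2 fold change -0.56 ± 0.16 SE, adjusted p = 0.0643). Rpl26, which binds p53 mRNA besides its place in the large subunit, stood at 11.86 and 11.98 against 12.37 and 12.49 (-0.51 ± 0.14 SE, adjusted p = 0.0599). In both the groups did not overlap. Rps25, needed for initiation at some internal ribosome entry sites, stood at 10.80 and 11.10 against 11.44 and 11.48 (-0.51 ± 0.16 SE, adjusted p = 0.0760). On the other side, Rps4x stood at 13.23 and 13.44 against 12.89 and 12.81 (0.49 ± 0.15 SE, adjusted p = 0.0711), and Rps27a, made as a fusion with ubiquitin, at 11.18 and 11.35 against 10.997 and 10.90 (0.32 ± 0.15 SE, adjusted p = 0.183). Again both Celf1 cKO values lay outside the Control values. The log2 fold change of Rps4x depended on the scaling, with 0.09 in the deposited normalized values and 0.31 with cyclic loess. It was 0.22 at the same median over probes detected on all 4 arrays and 0.94 at the same median for each array. Minus the median of all genes at the same setting, it was 0.48 as reported, 0.11 in the deposited values and 0.31 with cyclic loess. At either same median it was 0.41, so those 2 settings differ only by a shift of each array.

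The stalk proteins, which recruit the translation factors to the large subunit, were not called. Rplp0, the base of the stalk, had log2 values of 8.36 and 8.21 in Celf1 cKO and 8.39 and 8.18 in Control, with a 95% interval of the log2 fold change from -0.36 to 0.36. Rplp1 was at 14.58 and 14.55 against 14.49 and 14.52, with an interval from -0.26 to 0.38. Rplp2 was at 13.15 and 13.26 against 13.12 and 12.69, with an interval from -0.12 to 0.72, and Control B was its lowest array. The groups overlapped in Rplp0 and not in Rplp1 and Rplp2. Rpsa, the laminin receptor protein of the small subunit, was measured by a dim probe that read 58.1 and 57.5 intensity units in Celf1 cKO and 43.9 and 34.5 in Control and was above background on no Control array. It was retained through the Celf1 cKO arrays alone, and no fold is given because the bound set by the background does not exceed 1. It stays in the counts over the family, among the genes above 0 and those higher in Celf1 cKO.

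The direction over the family was uneven. In 42 of the 60 genes the log2 fold change was below 0 and in 18 it was above, where 5854 of all 12013 genes were below 0. The 18 became 58 at the same median for each array, 59 with no normalization between arrays and 8 in the deposited normalized values. The number above the median of all genes was 18 as reported, 25 at the same median for each array and 10 in the deposited values. The median of the family was -0.11, with a mean of -0.09, against a median of 0.01 over all 12013 genes. The 31 large subunit genes had a median of -0.11 and the 26 small subunit genes a median of -0.13, a difference that was not tested. The 3 stalk genes had a median of 0.06. The groups did not overlap in 44 of the 60 genes (30 lower and 14 higher in Celf1 cKO), against 62.1% of all genes, with 29.5% lower and 32.7% higher. The fold changes of the members had an SD of 0.29, against 0.47 over all genes.

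**Figure D3:**
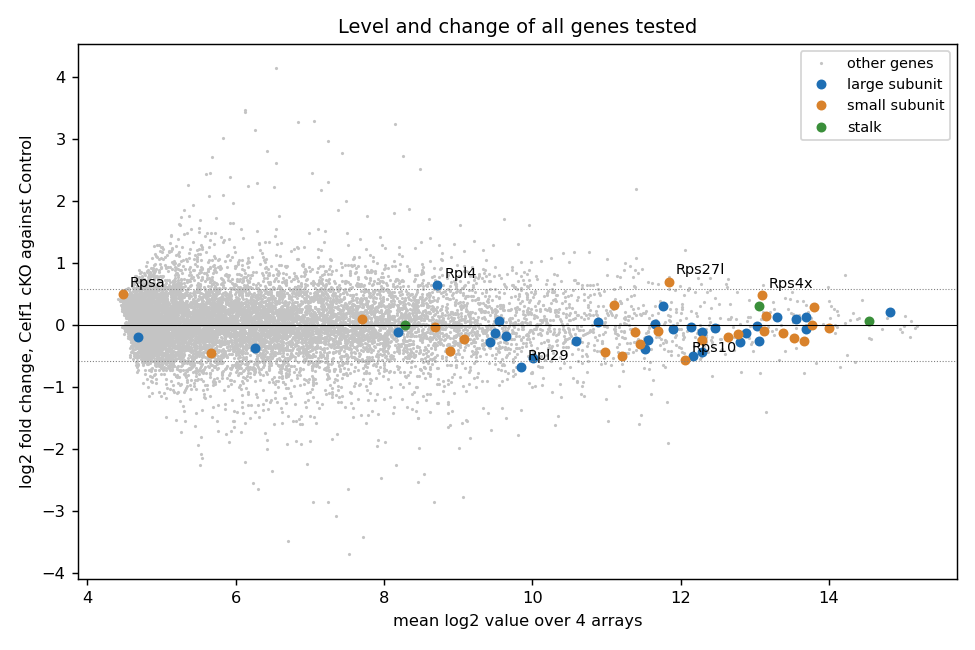
Mean log2 value over 4 arrays (horizontal axis) and log2 fold change (vertical axis) of all 12013 genes (grey) and of the ribosomal protein genes by subunit; dotted lines mark log2 fold changes of 0.58 and -0.58. Of the 60 ribosomal protein genes 55 have a mean log2 value over 8, and all lie between -0.68 and 0.70.

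The size of the family median depended on the processing, while it lay below the median of all features tested in each of the 21 alternatives. Of these, 5 leave the fold changes as they are, and 3 differ from each other only by a shift of each array and so give the same value. Relative to all features tested, the median was -0.12 as reported and ranged from -0.41 to -0.07. The deposited rank-invariant values gave the lowest, -0.41 with values under 1 set to 1 and -0.36 with 16 added, and in those values 61 of the 81 probes were lower on both Celf1 cKO arrays, where 31.9% of all retained probes were. After quantile normalization 42 of the 81 were lower, where 28.7% of all retained probes were. The member probes made up 7.42% and 7.33% of the unnormalized signal of the retained probes on the Celf1 cKO arrays, after subtraction of each array's median probe, and 8.53% and 8.55% on the Control arrays. Without the crystallins the shares were 8.03% and 7.88% against 9.52% and 9.61%. The groups did not overlap in these shares, and a two-sided exact permutation test gave p = 0.333, the smallest that 2 against 2 allows. The median log2 level of the members over that of all genes was nonetheless alike, with 5.80 and 5.88 in Celf1 cKO and 5.90 and 5.77 in Control. In whole lenses, less RNA per cell and fewer cells of a type cannot be told apart.

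**Figure D4:**
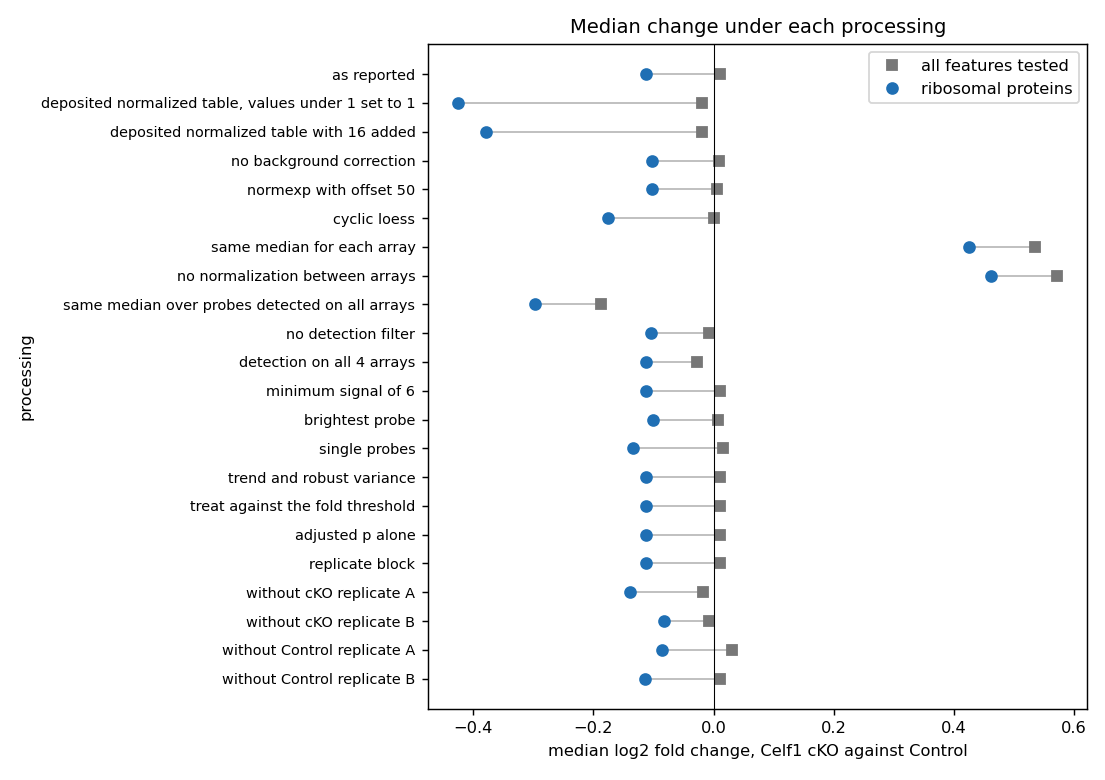
Median log2 fold change (horizontal axis) of the ribosomal protein genes (circles) and of all features tested (squares) under each processing (vertical axis). The circle lies to the left of the square in every row, also where the whole array shifts, as with no normalization between arrays (0.46 against 0.57).

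In 16 of the genes 2 or 3 probes were retained, and 4 of them had probes with opposite signs. Rps24, a small subunit protein with tissue-dependent splicing at its 3′ end, was the gene whose probes differed by more than 1. Its probes are shown because they read different parts of the transcripts.
Rps24, probe at transcript base 409: aacagaatgaagaaggtcaggggcacggcg
Rps24, probe at transcript base 704: ctacatgggcaaagtgtaggaccaattacc
Rps24, probe at transcript base 3449: ggaactggtaatcagggaaggtgctgtcag
The bases are numbered in each probe's own transcript record. The bright probe at base 409 had log2 values of 13.44 and 13.57 in Celf1 cKO and 13.25 and 12.66 in Control, a log2 fold change of 0.54. The probe at base 704 had 6.59 and 6.31 against 6.82 and 7.16, a log2 fold change of -0.53, and the dim probe at base 3449 gave -0.10. Control B was the lowest array for the bright probe and the highest for the probe at base 704. The median bead SE of the member probes was 7.75% of the signal on Control B, against 3.51% to 3.78% on the other arrays, and its part in these values was not tested. The test of a difference between probes of a gene (limma diffSplice) gave an adjusted p of 0.324 over 3125 genes with several probes.

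Rpl28 showed the same kind of split, with 13.01 and 13.14 against 12.93 and 12.96 for its bright probe (log2 fold change 0.13) and 6.05 and 6.03 against 6.41 and 6.64 for its dim probe (-0.49). In limma diffSplice the difference between the probes had an adjusted p of 0.212. The 3 probes of Rpl23 ranged from -0.38 to 0.12 (adjusted p = 0.600), and the 2 of Rps12 gave -0.01 and 0.01 (adjusted p = 0.988). None of the 16 genes passed in this test by diffSplice, which was passed by 1.31% of the 3125 genes. Of the 16, 2 genes, Rpl28 and Rps24, had an unadjusted p under 0.05. How many of the 3125 genes had such a p, or probes of opposite signs, was not counted. These member counts therefore have no background share.

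**Figure D5:**
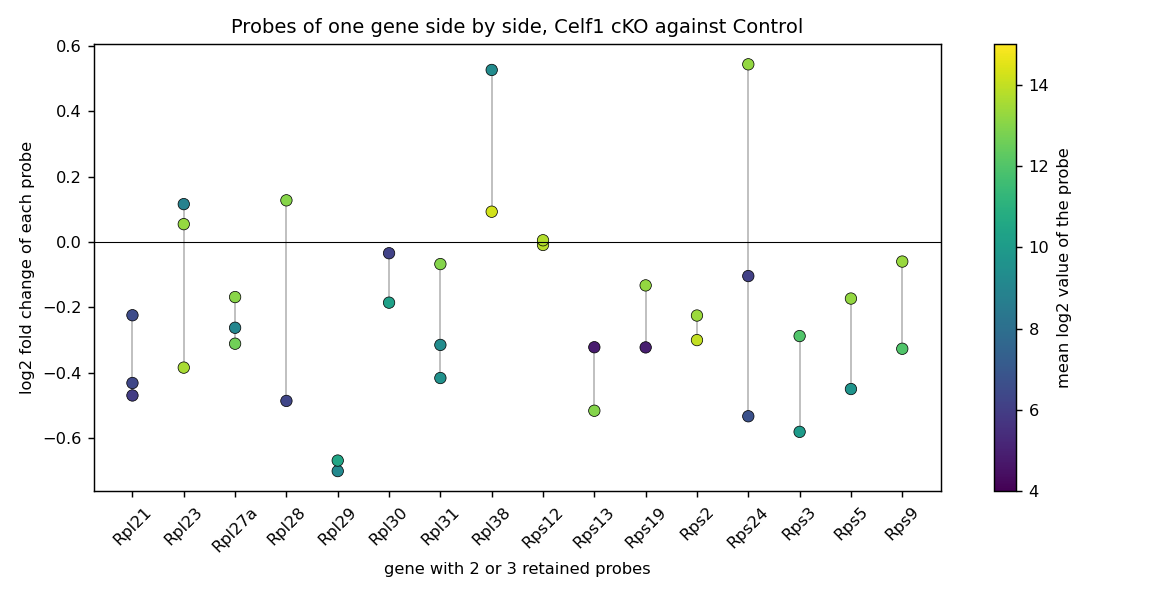
Log2 fold change of each retained probe (vertical axis) for the 16 ribosomal protein genes with 2 or 3 such probes (horizontal axis), coloured by the mean log2 value of the probe. The Rpl29 probes lie together near -0.7, and those of Rps24 run from -0.53 to 0.54.

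Genes linked to Diamond-Blackfan anemia had no calls. None of the 5 large subunit and 7 small subunit genes that could be tested was called by limma, against 11.9% of all genes. Of these 12, 3 (Rpl26, Rps10 and Rps15a) had an unadjusted p under 0.05, against 31.9% of all genes. Rps19, the gene most often affected in that anemia, had log2 values of 8.95 and 8.97 in Celf1 cKO and 9.25 and 9.13 in Control (log2 fold change -0.23, adjusted p = 0.307). The large subunit set had a median of -0.05, from Rpl26 at -0.51 through Rpl31 at -0.27, Rpl18 at -0.05 and Rpl35 at 0.09 to Rpl27 at 0.12. The small subunit set had a median of -0.10, from Rps10 at -0.56 through Rps15a at -0.45, Rps7 at -0.10, Rps29 at -0.05 and Rps24 at -0.03 to Rps26 at 0.15.

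The X-linked members had log2 fold changes on both sides of 0. Rps4x was at 0.49, Rpl39, a small protein at the exit tunnel, at -0.27 with 12.91 and 12.94 against 13.40 and 12.98, and Rpl36a at -0.39 with 11.29 and 11.36 against 11.75 and 11.69. None was called, and the part of the Xist and Ddx3y difference in these values was not tested. Rpl36al, the autosomal copy of Rpl36a, was at 12.82 and 12.81 against 12.94 and 12.96 (log2 fold change -0.13, adjusted p = 0.537). Among ribosomal genes whose names fall outside the rule, Gnb2l1, the signalling scaffold now named Rack1, was at 5.10 and 5.30 against 5.70 and 5.42 (-0.36, adjusted p = 0.178), and Rpl7l1 at 6.27 and 6.45 against 6.64 and 6.71 (-0.32, adjusted p = 0.181). Rpl22l1 was not retained, and Fau was not matched.

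Genes of ribosome assembly and rDNA transcription had few calls, read against the same 11.9% of all genes. Of 48 ribosome assembly factors tested, 3 were called, each elevated, and the median was 0.08. Npm1, the nucleolar chaperone nucleophosmin, rose from 10.89 and 10.61 in Control to 11.65 and 11.86 in Celf1 cKO (log2 fold change 1.01, adjusted p = 0.0142), Ftsj3, above background on 1 of the 2 Control arrays, rose by 0.73 and Ebna1bp2 by 0.61. Taf1d, a subunit of the RNA polymerase I selectivity factor, was the 1 called of 13 genes of rDNA transcription, with 6.15 and 6.09 against 5.36 and 4.41 (1.23, adjusted p = 0.0379). It was above background on 1 of the 2 Control arrays, so the size of its difference is uncertain. No chaperone or importer of ribosomal proteins was called by limma among 7 tested, and 1 of them, Bccip, had an unadjusted p under 0.05 (log2 fold change -0.40).

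Calls among TOP mRNAs and their regulators are read against the same 11.9% of all genes. Of 16 other TOP mRNAs 2 were called, a share close to that of all genes, namely Npm1 and, reduced, the poly(A)-binding protein Pabpc1 with 7.76 and 7.92 against 8.36 and 8.82 (-0.76, adjusted p = 0.0436), and the median of the list was -0.08. Of 19 genes in a list of regulators of mTORC1 and TOP translation, which also held the uncalled Trp53, Mdm2 and Max, 5 were called. Ddit4, a stress-induced inhibitor of mTORC1, was at 8.999 and 9.07 against 7.38 and 7.07 (1.81, adjusted p = 0.00277). Larp1, which binds the TOP tract, was at 5.84 and 6.06 against 4.91 and 4.66 (1.16, adjusted p = 0.00959), and it too was above background on only 1 of the 2 Control arrays. Tsc2, a brake on the mTORC1 activator Rheb, was at 10.47 and 9.78 against 11.07 and 11.49 (-1.15, adjusted p = 0.0322), and Rragc, a Rag GTPase that brings mTORC1 to the lysosome, at 9.59 and 9.49 against 10.46 and 10.58 (-0.98, adjusted p = 0.0105). Rheb itself was elevated (0.61, adjusted p = 0.0460). The 68 mitochondrial ribosomal proteins that were tested had 3 calls, against 11.9% of all genes, and a median of -0.0037.

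Markers of other cell types were mostly below detection or uncalled, and calls are read against 11.9% of all genes, with 6.19% elevated and 5.72% reduced. Of 10 retina markers 1 was retained, of 6 pigment cell markers 1 and of 6 muscle markers 1, none of them called, and the retained retina marker, Pde6b, was above background on no Control array. None of the 4 vessel markers tested was called by limma, with Kdr at -0.59, Tek at -0.26, Pecam1 at -0.06 and Cdh5, above background on 1 of the 2 Control arrays, at 0.58, and Kdr and Cdh5 had unadjusted p of 0.00674 and 0.0163. Of 4 macrophage markers tested 2 were called, both dim and above background on no Control array, so that they passed the filter through the Celf1 cKO arrays alone. Cd68 was at 4.95 and 5.20 against 4.30 and 4.49, and C1qb at 5.06 and 4.99 against 4.32 and 4.28. Csf1r (-0.11) and Aif1 (-0.06) were not called. No summed level of the 4 is given, because it would rest on Cd68 and C1qb. Of 21 lens fiber genes tested 6 were called, all reduced, with a summed level of 389904 to 400579 in Celf1 cKO against 434574 to 441533 in Control. The lowest of them were Crygf, a gamma-crystallin, at 7.99 and 7.38 against 10.43 and 10.48, and Dnase2b, the nuclease that degrades fiber cell DNA, at 6.38 and 5.82 against 7.63 and 7.77, and the least reduced were Cryga (-0.67) and Crygb (-0.60). Of 4 lens epithelium genes tested 1 was called, Foxe3 (-0.79), while Cdh1 was at -0.54 and Gja1 at -0.22, and Krt8 had log2 values of 4.99 and 5.14 against 4.69 and 4.48 and was above background on no Control array. Of 3 blood genes tested 1 was called, Slc4a1 (-1.03), while the globins Hba-a1 and Hbb-b1 were at -0.08 and 0.05. The part of these differences in the ribosomal protein values was not tested.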

How the data were processed

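Single P6 lenses (2 Celf1 cKO, 2 Control) were hybridised to Illumina BeadChips. The authors deposited bead-averaged intensity values, unnormalized and rank-invariant normalized, with a detection p-value for each probe from the scanner software, per the file headers. The authors' own analysis was described with a count-based package, which needs counts, and limma took its place. No column belonged to a sample not listed. Of 45281 probes, 18 on lines with shifted cells were left out. From the unnormalized intensities, background was corrected with neqc (offset 16) and log2 values were quantile normalized (limma 3.58.1, R 4.3.3). Probes with detection p under 0.05 on at least 2 arrays were averaged by symbol. Groups were compared with lmFit and eBayes over all 12013 genes, with Benjamini-Hochberg adjustment. The SE of a log2 fold change is the moderated one of limma, from the spread between samples shrunk towards a variance shared over genes. The SD of fold changes is over genes. Median bead numbers per member probe were 36 to 39 on each array. The median bead SE was 7.75% on Control B and 3.51% to 3.78% on the others. The number of arrays limits the precision. The same steps were tested on simulated data. Replicate letters did not pair samples (the correlation of A minus B differences between the groups was -0.01).

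Named were all called members, the 5 highest and 5 lowest, genes with discordant probes, stalk members, Rpsa, the anemia, X-linked and copy lists, and up to 2 called genes at each end of each other list. Some genes under this rule are not reported here. Mitochondrial ribosomal proteins were added later by symbol. The members and lists were chosen with earlier results of these data known. Symbols were matched to RefSeq (GRCm38.p6) for start-site sequences. No build is named for the probe positions in the deposited tables, so these were not used. Alternatives covered background, scaling, filters, probe rules, variance models, a replicate block and leaving out each array.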

Additional observations from a re-analysis of the deposited data

Results flagged for a closer look

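A second Rps27a probe, at transcript base 64, was left out by the detection filter. It read 57.0 and 52.8 intensity units in Celf1 cKO A and B and 45.4 and 42.5 in Control A and B, and it was detected on Celf1 cKO A alone. It is listed because signal outside the tested probes was above background on 1 of the 2 Celf1 cKO arrays and on no Control array. Among the other probes left out, that of Rps18 at base 212 was above background on Control A alone and that of Rpl37 at base 390 on Control B alone.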

How the results depend on the processing

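The 2 elevated calls became 21 with arrays at the same median, 23 with no normalization between arrays, 1 with the brightest probe and 1 with single probes, and 0 in the deposited normalized table (values under 1 set to 1, or with 16 added), without the detection filter, and when treat tested against the fold of 1.5. Over all genes, 47.1% and 50.4% were called in the first 2 of these settings, 12.9% with the brightest probe and 11.5% of single probes. The share was 10.2% in the deposited table with 16 added and 23.6% with the same median over probes detected on all arrays. It was 0.0583%, 0.674% and 0.782% with values under 1 set to 1, without the detection filter and with treat. As reported it was 11.9%. The 1 reduced call became 5 in the deposited table with 16 added, 4 with the same median over probes detected on all arrays and 2 with single probes (both of Rpl29), and 0 with values under 1 set to 1, the same median for each array, no normalization between arrays, no detection filter and treat. Leaving out 1 array gave 0 to 1 elevated and 0 to 2 reduced calls. The family median relative to all features moved from -0.12 to -0.41 (values under 1 set to 1) and -0.36 (16 added), and ranged from -0.12 to -0.07 with 1 array left out. Celf1 kept its direction but not its call with values under 1 set to 1 (-1.52, adjusted p = 0.0755), with no detection filter (-1.43, adjusted p = 0.0709) and with treat (-1.43, adjusted p = 0.121). It was still called at -0.64 with the same median for each array and at -0.60 with no normalization between arrays. With the replicate block, 2 members were called elevated and 1 reduced, against 15.4% of all genes, the median stayed at -0.12 and Celf1 at -1.43. The causes were not tested. With 2 lenses a group, changes of the size of most members could not be told from the spread, and dim probes such as that of Rpsa sit at background.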

Other observations

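The 3 called ribosomal protein genes, Rps27l, Rpl4 and Rpl29, all lie on mouse chromosome 9 in RefSeq (GRCm38.p6), at 66944624-66949522, 64173387-64178562 and 106428889-106431568. The 60 members were placed on 18 chromosomes, with 6 on chromosome 9, where Rplp1, Rps25 and Rpsa were not called. Over all genes placed there, 55 of 483 were called (11.4%). This was seen after the calls were known and was not tested.

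Rps4y2, a file symbol that falls outside the name rule, was detected on all 4 arrays, with log2 values of 9.22 and 8.90 in Celf1 cKO and 8.83 and 9.12 in Control (log2 fold change 0.09, adjusted p = 0.772).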
